A study of Mus musculus with 12 samples.

Results

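The interleukin 1 (IL-1) family genes described here comprise 4 ligands (*Il33*, *Il1a*, *Il1b* and *Il18*), the receptor antagonist *Il1rn*, the receptor chains *Il1rl1*, *Il1rap*, *Il1r1* and *Il1r2*, and the IL-18 binding protein gene *Il18bp*. They are 10 of the 21325 gene symbols on the array and were measured by 20 of its 41174 probes. Members were selected by symbol. For 9 genes this was the symbol in the scanner files, whereas *Il33* was filed there under its older clone name, 9230117N10Rik, and was found through its RefSeq accession, NM_133775. *Il33* was singled out because its signal rose strongly on these same arrays, so its values are given as a description with no test. The other 9 genes were included for belonging to the family.

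The study asked how Rspo2, a secreted amplifier of Wnt signaling, and Wnt3a, a secreted Wnt ligand, alone and together alter gene expression in C57MG cells. C57MG is a mouse line of mammary epithelial origin, and a single line was used. Monolayers received recombinant human Rspo2 (100 ng/ml), recombinant mouse Wnt3a (100 ng/ml), both at these concentrations, or the carrier protein bovine serum albumin (BSA), for 24 h. Each of the 4 groups had 3 monolayers, and the RNA of each was hybridized to its own single-color array, giving 12 arrays. The arrays lay on 3 slides. BSA replicates 1 to 3 and Rspo2 replicate 1 shared slide 1. The remaining Rspo2 arrays were on slide 2, beside Wnt3a replicates 1 and 2. All arrays of Rspo2 plus Wnt3a were on slide 3 next to Wnt3a replicate 3, so BSA and the combination never shared a slide.

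Between 51.28% and 64.17% of probes per array were well above background, a flag set by the scanner software. A probe was counted as detected when it carried this flag on all 3 arrays of at least 1 group, which held for 22750 probes. Of 12 epithelial marker genes, *Krt8* and *Krt14* were above background on all arrays and *Cdh1*, *Cldn7* and *Esrp1* on none, while 9 of 10 mesenchymal markers (all but *Thy1*) were above background on every array. Of 17 leukocyte marker genes, 6 were above background on all arrays and only 3 (*Kit*, *Cpa3* and *S100a9*) on none. Leukocyte markers as a list were thus not absent, although *Ptprc*, the pan-leukocyte marker, was above background on 1 array of Rspo2 plus Wnt3a alone. The summed signal of the leukocyte markers ranged from 5.389 to 6.173 times the 75th percentile of the array with BSA and from 5.266 to 6.771 with the combination, that of the epithelial markers from 10.35 to 10.73 and from 22.57 to 26.02, that of the mesenchymal markers from 691.3 to 700.6 and from 784.8 to 842.3, and that of the endothelial markers from 2.555 to 2.66 and from 1.747 to 1.84. Single genes carried some of these sums. *Krt14* made up most of the epithelial sum and rose by 1.24 on the log2 scale with the combination (limma adjusted p = 8.28e-06), while *Krt8* fell by 1.15 (adjusted p = 0.000365). *Cdh5* made up most of the endothelial sum and fell by 0.55 (adjusted p = 0.000259). The part of these shifts in the results below was not tested. Of 12 Wnt pathway genes on the array, 5 were detected, and 4 of these were at least 2-fold up-regulated by Rspo2 plus Wnt3a at an adjusted p under 0.05, as were 1.28% of all detected probes. One of them was the feedback inhibitor *Axin2*, at least 9.39-fold higher with the combination than with BSA. It was above background only on the 3 arrays of the combination. *Axin2* thus counted as detected only through the group where it was high, and its call is not independent of that filter.

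IL-1 family cytokines signal through paired receptor chains that recruit the adaptor MyD88 and activate NF-κB and MAP kinases. IL-33 is a nuclear alarmin of epithelial, endothelial and stromal cells. Released on damage, it binds ST2, the product of *Il1rl1*, which signals together with the shared accessory protein encoded by *Il1rap*. *Il1rl1* also gives a secreted form of ST2 that acts as a decoy for IL-33. IL-1α and IL-1β bind the receptor encoded by *Il1r1* with the same accessory protein, whereas IL-1ra (*Il1rn*) occupies that receptor without signaling and *Il1r2* encodes a decoy. IL-18 has its own receptor pair and is neutralized by the binding protein that *Il18bp* encodes.

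All 10 genes matched entries of a RefSeq promoter table (GRCm38.p6), 15 promoters in all. Promoters were searched on both strands, from 250 bases before to 50 after the start site, for the TCF/LEF letters CTTTG followed by AA, AT, TA or TT, and for the AP-1 letters TGANTCA. Matches of the pair did not overlap in any family promoter. TCF/LEF letters occurred in 16.9% of the 32851 promoters of the table and AP-1 letters in 7.81%. The 250 upstream bases of both *Il33* promoters and of the first *Il1rn* promoter are shown because these are the family genes whose signal was higher with Rspo2 plus Wnt3a than with BSA by at least 2-fold. Of the *Il1rn* promoters only the first is shown, the 1 with matches. Which promoter was in use was not tested. Capitals mark the letters searched for. *Il33* promoter 1 lies at chr19:29924863-29925112 and promoter 2 at chr19:29945540-29945789, and *Il1rn* promoter 1 at chr2:24336610-24336859, all on the plus strand.
Il33 promoter 1: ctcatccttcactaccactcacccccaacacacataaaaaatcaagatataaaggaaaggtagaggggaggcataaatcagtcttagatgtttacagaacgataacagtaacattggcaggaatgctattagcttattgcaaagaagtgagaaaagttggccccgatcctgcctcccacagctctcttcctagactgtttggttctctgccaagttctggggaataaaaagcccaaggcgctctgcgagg
Il33 promoter 2: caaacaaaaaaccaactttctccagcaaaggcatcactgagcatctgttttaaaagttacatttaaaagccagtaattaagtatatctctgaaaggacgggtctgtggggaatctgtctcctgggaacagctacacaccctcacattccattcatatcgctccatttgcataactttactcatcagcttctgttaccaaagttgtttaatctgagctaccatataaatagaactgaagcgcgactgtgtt
Il1rn promoter 1: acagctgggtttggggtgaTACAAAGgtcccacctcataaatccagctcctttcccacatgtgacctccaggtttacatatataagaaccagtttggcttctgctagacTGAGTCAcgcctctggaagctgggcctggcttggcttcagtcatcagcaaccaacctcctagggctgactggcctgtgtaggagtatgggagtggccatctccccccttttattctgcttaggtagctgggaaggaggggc
Neither *Il33* window held any of these letters. The first *Il1rn* promoter held 1 TCF/LEF match beginning 231 bases before the start site and 1 AP-1 match beginning 141 bases before it. The other *Il1rn* promoters and both *Il1rl1* promoters held no match. *Il1a* held 1 AP-1 match, and *Il18* held 1 TCF/LEF match that begins 3 bases before its start site. These matches describe letters and not sites of binding.

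*Il33*, the ligand of ST2, was the family member with the widest range of group means, lowest with BSA and highest with Rspo2 plus Wnt3a. Its single probe gave intensities of 52.13, 73.42 and 66.43 in BSA replicates 1 to 3. With Rspo2 the intensities were 339.8, 262 and 229.7. With Wnt3a they were 585.7, 555.2 and 497.3, and with Rspo2 plus Wnt3a 1869, 1956 and 2133. The probe was well above background on all 12 arrays, and no array of one group overlapped with any of another.

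**Figure D1:**
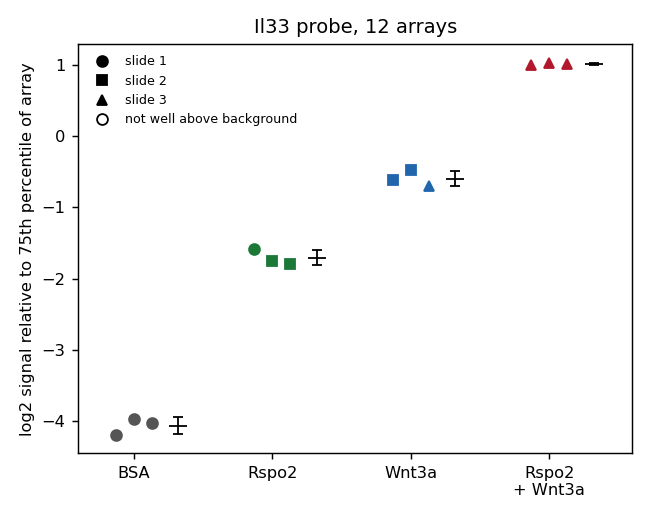
Signal of the *Il33* probe on each of the 12 arrays (y axis, log2, scaled to the 75th percentile of each array) by treatment (x axis). Marker shapes give the slide, filled markers are above background, and bars are mean ± SD (n = 3); the 4 groups form separate steps from -4.06 with BSA to 1.01 with Rspo2 plus Wnt3a.

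On the log2 scale, less the array's 75th percentile, the *Il33* signal was -4.06 ± 0.12 (SD, n = 3) with BSA, -1.71 ± 0.11 with Rspo2, -0.60 ± 0.11 with Wnt3a and 1.01 ± 0.02 with both. Relative to BSA the log2 difference was 2.35 with Rspo2 (5.1-fold, SE 0.089), 3.46 with Wnt3a (11-fold) and 5.07 with Rspo2 plus Wnt3a (33.6-fold). These were the second, first and second highest rises among 22750 detected probes. The combination exceeded Wnt3a alone by 1.61 (3.05-fold) and Rspo2 alone by 2.72 (6.58-fold), and Wnt3a alone exceeded Rspo2 alone by 1.11 (2.16-fold). In all 4 groups the spread between replicates was small beside these steps. In cultures measured in bulk, more expressing cells and more RNA per cell cannot be told apart.

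The joint response of *Il33* depended on the scale on which it was read. On the log2 scale the separate changes added up to 5.81, or 56.2-fold, and the combination fell short of this by an interaction of -0.75 (SE 0.126). On the linear scale the signal was 0.0601 ± 0.0048 times the 75th percentile with BSA, 0.307 ± 0.023 with Rspo2, 0.662 ± 0.051 with Wnt3a and 2.01 ± 0.028 with the combination. The separate linear rises of 0.247 and 0.602 add up to 0.849, and the rise with the combination was 1.95. The joint rise was thus below the product of the separate folds and above the sum of the separate linear rises. With normexp background correction in place of that of the scanner software, the log2 differences from BSA were 1.57, 2.20 and 3.63 and the interaction was -0.14 (SE 0.478).

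The slides allowed some *Il33* comparisons within a slide, chosen after seeing the data. On slide 1, Rspo2 replicate 1 exceeded the 3 BSA arrays by 2.47 on the log2 scale. On slide 2, Wnt3a replicates 1 and 2 exceeded Rspo2 replicates 2 and 3 by 1.22, and on slide 3 the 3 combination arrays exceeded Wnt3a replicate 3 by 1.71. Each within-slide difference was at least as large as that over all slides.

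The classical IL-1 ligands were at background in every group. *Il1a*, which encodes IL-1α, has 2 probes, and *Il1b*, which encodes IL-1β, has 1 probe. The first *Il1a* probe (A_51_P438283) was above background on 0 of 12 arrays, with intensities from 3.393 to 15.75. The other (A_52_P100926) was above background on 1 array, replicate 3 of Rspo2 plus Wnt3a, at 47.2, with 4.308 and 4.788 in replicates 1 and 2. The *Il1b* probe was printed in 10 spots per array, and 3 of its 120 spots were above background. *Il1b* intensities averaged over spots ranged from 3.193 to 11.13. No fold is given for either gene, since both sides of each comparison were at background.

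*Il18* was detected on all 12 arrays and differed little between groups. All of its 120 spots were above background, and the coefficient of variation among the 10 spots on an array ran from 2.69% to 7.4%. *Il18* intensities were 307.3, 397.3 and 369 with BSA, 392.5, 334.9 and 388.4 with Rspo2, 282.6, 280.5 and 293 with Wnt3a, and 314.2, 274 and 293.4 with both. The log2 change from BSA was 0.30 (SE 0.115, limma adjusted p = 0.0904) with Rspo2, 0.04 (adjusted p = 0.826) with Wnt3a and -0.18 (adjusted p = 0.251) with the combination. None of the 3 passed the test, and the sign with Wnt3a turned under other settings, between -0.17 and 0.14.

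**Figure D2:**
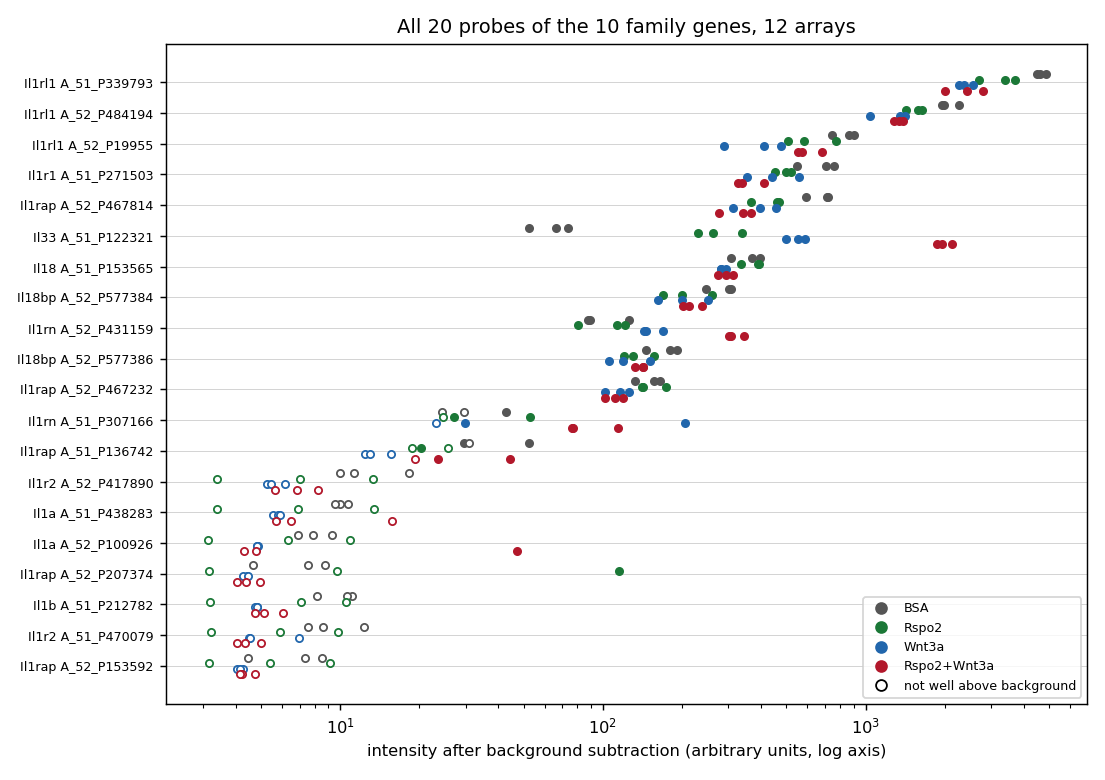
Intensity of all 20 family probes on the 12 arrays (x axis, arbitrary units, log axis), one row per probe, colored by treatment; open circles are not well above background. Levels of different probes cannot be compared; within a row, the *Il33* groups are separate while the *Il1a*, *Il1b* and *Il1r2* rows hold open circles on all arrays but 1.

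Among the 11 detected probes of the 9 other genes, 0 were changed at least 2-fold at an adjusted p under 0.05 by Rspo2, where 0.721% of all detected probes were. Wnt3a also changed 0 (2.52% of all), Rspo2 plus Wnt3a changed 1, higher than with BSA (5.08% of all, 1.28% higher), and the combination changed 0 relative to Wnt3a (0.747%) and 0 in the interaction (1.93%). At an unadjusted limma p under 0.05, with no fold requirement, these numbers were 4, 5, 7, 6 and 4 in the same order, where 35%, 43%, 47.9%, 18.4% and 29.3% of all detected probes were. With the 2-fold requirement kept, the methods' t-test with adjustment gave 0, 0, 1 and 0 for the 4 comparisons of treatments. By adjusted p alone, with no fold requirement, 1 was lower with Rspo2 (5.93% of all probes were lower by this rule), 4 were lower and 1 higher with Wnt3a (13.2% lower and 18.3% higher), and 5 were lower and 1 higher with the combination (17.3% lower and 21.9% higher). Relative to Wnt3a, 2 were lower and 1 higher (2.49% lower and 1.78% higher), and in the interaction 1 was lower (5.31%). Their median log2 change was -0.18 for Rspo2, -0.14 for Wnt3a and -0.35 for the combination, beside 0.01, 0 and 0.04 over all detected probes. The probes of 1 gene are not independent, so these counts describe 11 probes and 6 genes. The dimmer *Il1rn* probe, 1 of the 7 with the combination, counted as detected only through the combination arrays, where it was highest.

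The 1 probe that passed both thresholds measured *Il1rn*, which encodes the antagonist of the IL-1 receptor. Its brighter probe (A_52_P431159) gave 89.05, 125.8 and 87.87 with BSA and 121.3, 113.1 and 80.68 with Rspo2. With Wnt3a it gave 143.8, 146 and 169.1, and with Rspo2 plus Wnt3a 343.6, 306.5 and 303. The combination arrays lay above all others, and the BSA and Rspo2 arrays overlapped. *Il1rn* was up-regulated 3.42-fold by Rspo2 plus Wnt3a (log2 change 1.77, SE 0.146, limma adjusted p = 1.11e-05). With Wnt3a alone the log2 change was 0.97 (1.96-fold, adjusted p = 0.00141), with Rspo2 alone 0.30 (adjusted p = 0.174), and from Wnt3a to the combination 0.80 (adjusted p = 0.0111). The call with the combination was lost with normexp correction (log2 change 0.93, adjusted p = 0.264) and when slide was fitted as a term (1.55, adjusted p = 0.0559), with the same direction. Both other calls were lost in these settings too, and the change with Wnt3a alone was 0.33 with normexp correction. The step from Wnt3a to the combination was also lost with all probes tested, detected or not. On slide 3 the combination exceeded Wnt3a replicate 3 by 0.62.

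The dimmer *Il1rn* probe (A_51_P307166), filed under the same accession, was less clear. It read 42.83, 29.52 and 24.38 with BSA, 29.77, 23.13 and 205.9 with Wnt3a, and 114.5, 76.5 and 77.06 with the combination. Wnt3a replicate 3 stood apart on this probe and not on the brighter one. The log2 change with the combination was 1.59 (SE 0.679), which became -0.70 with slide as a term. The probe was above background on all 3 arrays only with the combination. It thus counted as detected only through the group where it was highest, so this change is given as a description.

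Signals of *Il1rl1*, which encodes soluble and long ST2, were lower with Wnt3a and with the combination, where *Il33* was higher. The size of the difference varied between its probes. The *Il1rl1* probe A_51_P339793, filed under the transcript variant for soluble ST2 (NM_010743), gave 4484, 4846 and 4615 with BSA and 3695, 3404 and 2698 with Rspo2. With Wnt3a its intensities were 2557, 2361 and 2262, and with Rspo2 plus Wnt3a 2435, 2005 and 2811. After scaling to the 75th percentile the 4 groups did not overlap, in the reverse order of *Il33*. The signal fell by 0.60 on the log2 scale with Wnt3a (SE 0.101, adjusted p = 0.00222) and by 0.86 with the combination (adjusted p = 0.00013), while with Rspo2 the log2 change was -0.28 (adjusted p = 0.0791). All of these are smaller than 2-fold. Among all detected probes, the arrays of BSA and the combination did not overlap for 23.1% that were lower and 30.8% that were higher. These shares are for 2 groups, and the share with all 4 groups apart was not computed.

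The probe for the long, signaling form of ST2 (A_52_P484194, NM_001025602) gave 1982, 2272 and 1962 with BSA, 1636, 1587 and 1426 with Rspo2, 1410, 1349 and 1037 with Wnt3a, and 1335, 1287 and 1394 with both. It fell by 0.36 with Wnt3a (SE 0.111, adjusted p = 0.0293) and by 0.53 with the combination (adjusted p = 0.0038). The fall with Wnt3a was lost on leaving out BSA replicate 1, BSA replicate 2 or Wnt3a replicate 3, with an adjusted p of up to 0.0927, and with all probes tested. The remaining *Il1rl1* probe (A_52_P19955), filed under both variants, fell by 0.76 with Wnt3a (SE 0.172, adjusted p = 0.00772), and its log2 change with the combination was -0.37 (adjusted p = 0.116). Its intensities were 409.9, 288.5 and 475 with Wnt3a and 574.4, 685.2 and 555.5 with the combination. After scaling to the 75th percentile these arrays overlapped, the difference did not pass the test (log2 change 0.40 from Wnt3a to the combination, adjusted p = 0.25), and on slide 3 it was 0.053.

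*Il1rap*, the accessory protein shared by the IL-33 and IL-1 receptors, was measured by 5 probes, of which 2 were detected. The brightest (A_52_P467814) was filed under a cDNA clone and not under a RefSeq transcript variant. It gave 595.2, 710.2 and 721.4 with BSA, 467.4, 461.3 and 365 with Rspo2, 455.4, 396.3 and 313 with Wnt3a, and 277.5, 340.2 and 364.8 with the combination. It fell by 0.95 on the log2 scale with the combination (1.93-fold, SE 0.119, adjusted p = 0.000193). The smaller falls of 0.41 with Rspo2 (adjusted p = 0.0415) and 0.45 with Wnt3a (adjusted p = 0.0156), and that of 0.49 from Wnt3a to the combination (adjusted p = 0.0424), were less stable. On leaving out single arrays the adjusted p rose to 0.131, 0.0541 and 0.176; the first rose above 0.05 without any 1 of 8 arrays, the second without BSA replicate 3 and the last without any 1 of 11 arrays.

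The other detected *Il1rap* probe (A_52_P467232), filed under transcript variant 2 (NM_134103), gave 132.5, 164.7 and 156.7 with BSA, 174.2, 141.7 and 141.1 with Rspo2, 126, 116.1 and 101.7 with Wnt3a, and 119.7, 101.5 and 111.1 with both. The combination fell by 0.35 (SE 0.095, adjusted p = 0.0149), which was lost without Rspo2 plus Wnt3a replicate 2 or 3 (adjusted p up to 0.0635), with all probes tested, and with quantile normalization, where the change was -0.14. With Rspo2 alone the log2 change was 0.25 (adjusted p = 0.0889), opposite in sign to that of the brightest probe. A probe filed under variant 1 (A_51_P136742) was above background on 5 of 12 arrays, none of them with Wnt3a, with intensities of 12.4 to 52.29. Of the remaining probes, A_52_P153592 was at background on all arrays, and A_52_P207374 was above it on Rspo2 replicate 2 alone, at 114.9 against 3.171 to 9.677 on the other arrays.

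*Il1r1*, the signaling receptor for IL-1α and IL-1β, was detected by its 1 probe with 548.1, 709.2 and 758 in BSA, 495.8, 520.5 and 453.6 with Rspo2, 558.7, 441.2 and 352.6 with Wnt3a, and 326.6, 337.4 and 410.3 with the combination. It fell by 0.80 with Rspo2 plus Wnt3a (1.74-fold, SE 0.136, adjusted p = 0.00119). With Rspo2 or Wnt3a alone the log2 changes were -0.20 (adjusted p = 0.317) and -0.23 (adjusted p = 0.22). The fall of 0.57 from Wnt3a to the combination (adjusted p = 0.0401) was lost on leaving out any 1 of 9 arrays (adjusted p up to 0.157). Wnt3a replicate 3, the array on the slide of the combination, was the lowest of its group, and within that slide the difference was -0.28.

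The decoy receptor *Il1r2* was at background on all 12 arrays with both of its probes, between 3.21 and 18.25. *Il18bp* was detected with both probes and did not pass the test in any comparison. Its brighter probe (A_52_P577384) gave 246.9, 307.8 and 301.2 with BSA and 212.5, 201.1 and 237.5 with the combination, a log2 change of -0.29 (SE 0.149, adjusted p = 0.147). The other probe changed by -0.20 (adjusted p = 0.317).

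**Figure D3:**
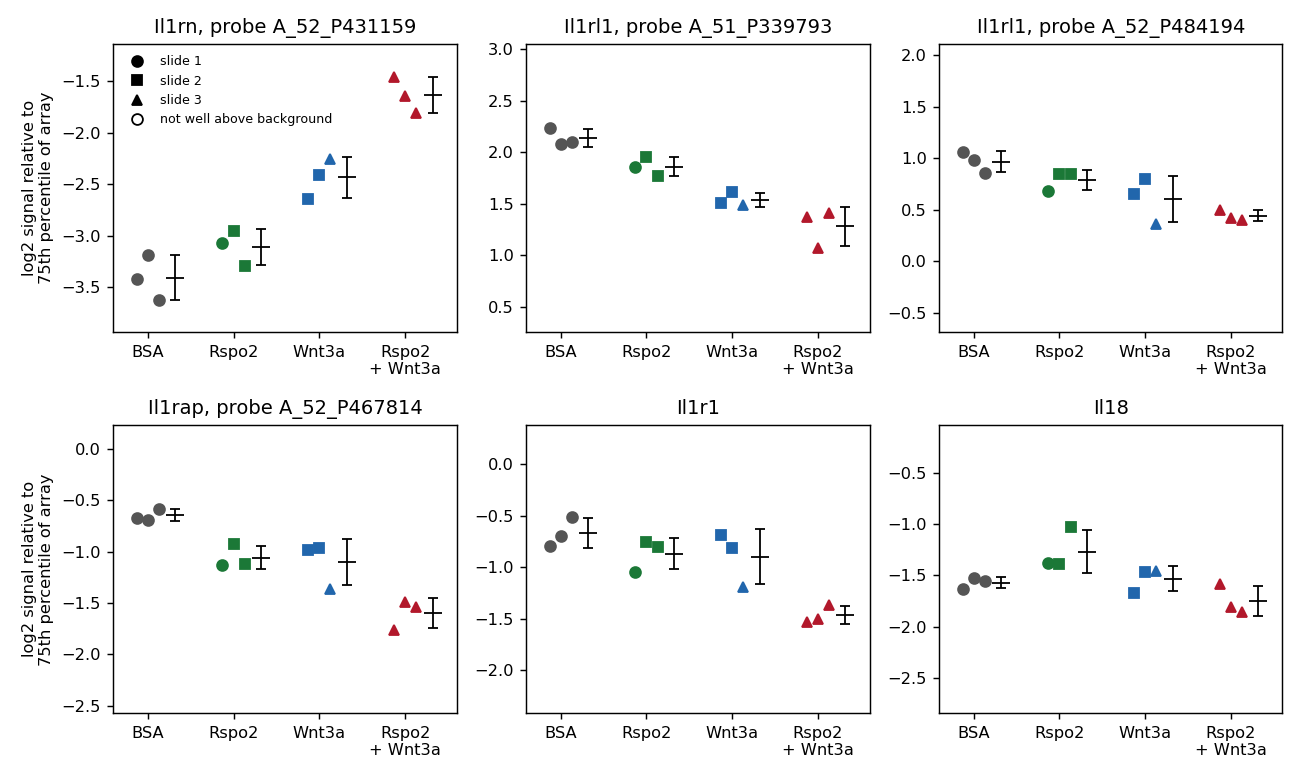
Signal of 6 family probes on each array (y axis, log2 relative to the 75th percentile; all panels span the same range) by treatment (x axis). Marker shapes give the slide and bars mean ± SD (n = 3); *Il1rn* is highest with Rspo2 plus Wnt3a, the 2 *Il1rl1* probes shown, *Il1rap* and *Il1r1* are lowest there (the *Il1rl1* probe not shown, A_52_P19955, is lowest with Wnt3a), and the *Il18* groups lie close together.

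Slide and treatment were partly confounded, and this bears on all the falls above. When slide was fitted as a term, the log2 change with Rspo2 plus Wnt3a was -0.79 (adjusted p = 0.171) for *Il1rl1* probe A_51_P339793, -0.66 (adjusted p = 0.179) for *Il1rap* probe A_52_P467814 and -0.62 (adjusted p = 0.208) for *Il1r1*. In that fit 0 of the 11 probes had an adjusted p under 0.05 in any of the 5 comparisons. Of all probes, 0.431% did with Rspo2, 0.796% with Wnt3a, 2.51% with the combination, 1.38% relative to Wnt3a and 0.743% in the interaction. For 11 probes, 0 is near these shares. With normexp correction these 3 falls kept an adjusted p under 0.05, and every other call of the 9 genes at that level was lost. The directions of these 3 falls were the same in all 21 settings. *Il33* with slide as a term differed from BSA by 2.47, 3.69 and 5.39.

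**Figure D4:**
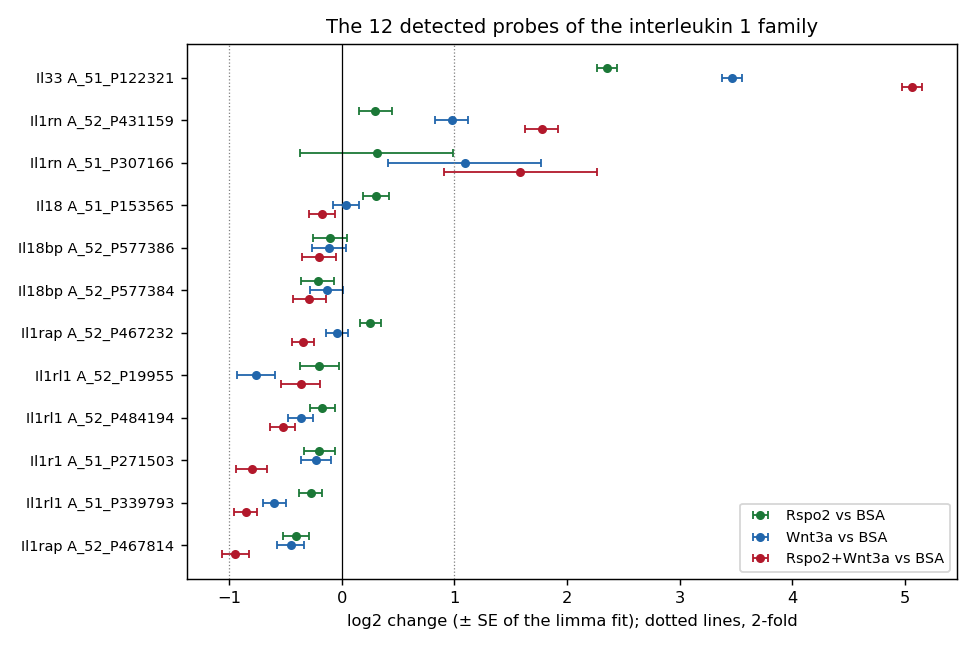
Log2 change from BSA (x axis, ± SE of the limma fit) of the 12 detected family probes (y axis) with Rspo2, Wnt3a and both; dotted lines mark 2-fold. *Il33* stands at 2.35 to 5.07, the *Il1rn* probes reach 1.77 and 1.59, and the probes of the other genes lie within 2-fold of BSA.

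Set beside *Il33*, the other ligands among the 10 genes were at background or, for *Il18*, within 1.23-fold of BSA. The brightest probes of *Il1rl1*, *Il1rap* and *Il1r1* were lower with the combination, that of *Il1rl1* being the probe filed under soluble ST2. Over the 12 arrays, the Pearson correlation of log2 signal with *Il33* was 0.925 for *Il1rn*, -0.33 for *Il18*, -0.505 for *Il18bp*, -0.807 for *Il1r1*, -0.909 for *Il1rap* and -0.945 for *Il1rl1*. These coefficients describe arrays that share treatments and slides. Among 12828 genes *Il1rn* ranked 278 from the top and *Il1rl1* 12708, so many other genes ran as closely with or against *Il33*. The 5 genes most alike were *Ccn1* (0.9919), a matricellular protein gene, *Spry1* (0.9833), a feedback inhibitor of receptor tyrosine kinase signaling, *Cyp20a1*, *Fam114a1* and *Fancl*. Of these, *Spry1* differed from BSA by 2.08 with the combination on the log2 scale, and *Ccn1* by 1.36. The 5 most opposed were 9530028C05, *Cfap69*, LOC381508, *Oas2*, an interferon-stimulated antiviral gene, and *Npff*, with coefficients from -0.9914 to -0.9852.

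The rest of the IL-1 family and its pathway was read from lists of genes. Of 10 further family genes on the array, 3 were detected (*Il18rap*, *Sigirr* and *Il1rapl2*) and 0 changed by at least 2-fold at an adjusted p under 0.05 in the 5 comparisons. The IL-36 ligand genes *Il36a*, *Il36b* and *Il36g* and the IL-18 receptor gene *Il18r1* were not detected. For the cleavage and release of these cytokines, 9 of 14 genes were detected and 0 changed. They included *Casp1*, the caspase that matures IL-1β and IL-18, at a log2 change of 0.39 with the combination (adjusted p = 0.00905), while the inflammasome sensors *Nlrp3*, *Nlrp1a*, *Nlrc4* and *Aim2* were not detected. Of 26 signaling genes, from *Myd88* and the IRAK kinases to the IKK complex and MAP kinases, 25 were detected and 0 changed. Of all detected probes, 0.721% changed with Rspo2, 2.52% with Wnt3a, 5.08% with the combination, 0.747% relative to Wnt3a and 1.93% in the interaction. For lists this short, 0 is near these shares. With the combination, 0 of the 3 further family genes, 6 of the 9 cleavage genes and 7 of the 25 signaling genes had an unadjusted limma p under 0.05, where 47.9% of all detected probes did. The median log2 change of the signaling genes with the combination was -0.03, beside 0.04 over all probes.

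Genes known to respond to IL-1 and NF-κB were often lower. Of 29 on the array, 22 were detected, and 6 were at least 2-fold lower with Rspo2 (0.62% of all probes were lower), 7 with Wnt3a (2.11%) and 8 with the combination (3.79%), with *Il1rn* the 1 that was higher. The median log2 change of the list was -0.53, -0.57 and -0.71 in the 3 comparisons with BSA. Relative to Wnt3a, 2 were lower with the combination (0.334%), and in the interaction 4 were positive (1.27%). *Lcn2*, which encodes lipocalin 2, had a mean intensity of 4090 with BSA, 170 with Rspo2, 53.4 with Wnt3a and 24 with the combination. It was above background on 1 of 3 arrays of the combination and on all arrays of the other groups. Its log2 change was -4.34 with Rspo2 (SE 0.129, adjusted p = 7.15e-08) and -5.89 with Wnt3a (adjusted p = 2.74e-09). The change of *Lcn2* with the combination, and its positive interaction, rest on signals near background. The chemokine genes *Ccl7* and *Cxcl5* changed with the combination by -2.97 (adjusted p = 2.83e-07) and -1.84 (adjusted p = 1.77e-07) on the log2 scale. *Ccl20* was at least 2.45-fold lower with the combination, a call lost with slide as a term or with normexp correction. *Saa3*, an acute phase gene, was at least 5.16-fold lower with Rspo2 and at least 6.12-fold lower with Wnt3a, calls lost with normexp correction. Both *Ccl20* and *Saa3* counted as detected only through the BSA arrays, where they were highest, so these calls are not independent of that filter. *Saa3* was above background on 0 arrays with Rspo2 or Wnt3a and on 1 with the combination. Its positive interaction thus rests on signals near background. The other positive interactions were those of *Il6* (1.24, limma adjusted p = 0.00082) and *Zc3h12a* (1.46, limma adjusted p = 0.0129), both genes above background on all arrays. That of *Il6* was lost with normexp correction, and that of *Zc3h12a* with normexp correction, slide as a term or all probes tested. The list holds genes with other inducers too, and it was drawn up with results of these arrays known, so its counts are not independent evidence of a direction.

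**Figure D5:**
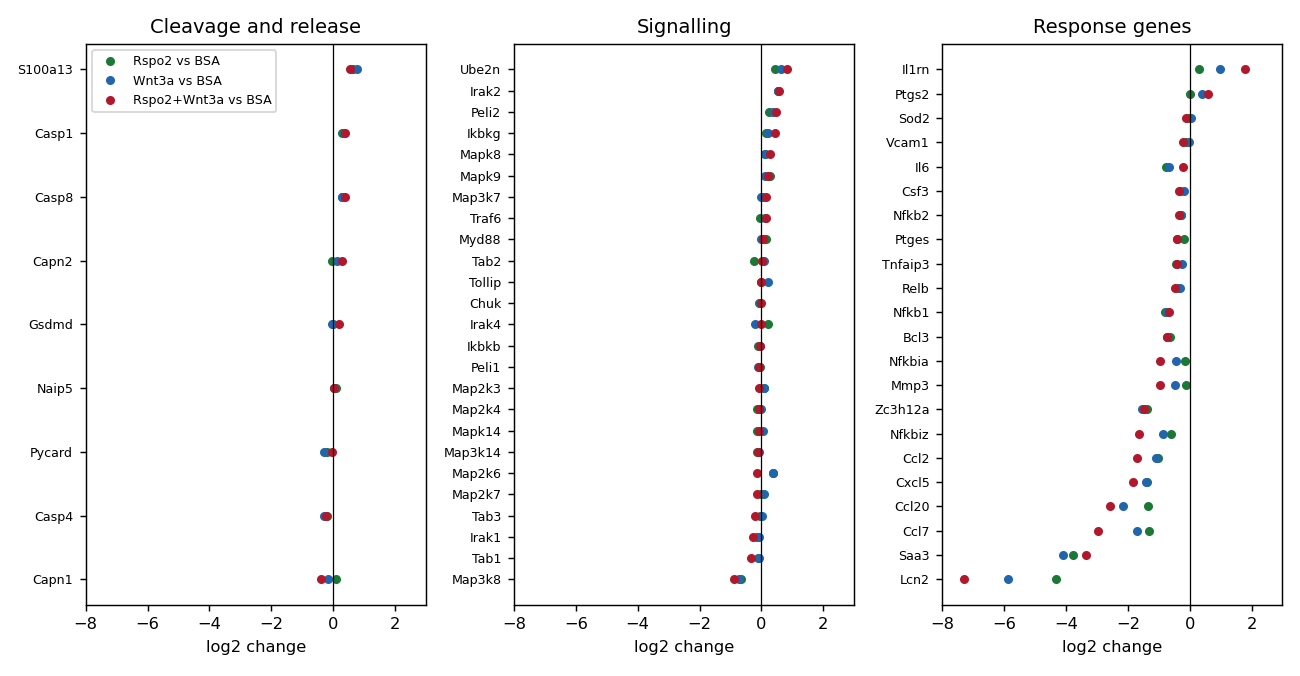
Log2 change from BSA (x axis) of the detected genes of 3 lists (y axis) with Rspo2, Wnt3a and both. Cleavage and signaling genes lie within 2-fold of BSA, whereas response genes extend from -7.31 (*Lcn2* with the combination, where 1 of 3 arrays was above background) to 1.77 (*Il1rn*).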

How the data were processed

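C57MG monolayers were profiled on 12 single-color Agilent arrays, 3 per treatment. The intensity values deposited by the authors came from Agilent Feature Extraction 9.5.3.1, per the labels, after background subtraction and with no scaling between arrays. The authors also deposited a table of ratio values on a linear scale, each signal divided by the 75th percentile of its array, with a lowest value of 0.01; 99.88% to 99.94% of its values per array were recomputed to within 1% or rounding, and its column medians were 0.05 to 0.08. The number of arrays and the signal over background limit the precision.

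Of 520548 spot values, 1327 with an unevenness or outlier flag were left out. Spots of a probe were averaged and put on the log2 scale, the 75th percentile of each array was subtracted, and a probe with repeated spots was above background where at least 0.5 of them were. Probes were named by accession through the GRCm38.p6 annotation (22951) or by the files' symbol (10379). All 12 arrays entered one limma 3.58.1 fit (R 4.3.3), the source of all p-values except those given for a named alternative setting, adjusted by Benjamini-Hochberg over 22750 probes. Changed means an adjusted p under 0.05 and at least 2-fold; rose and fell were also used for smaller changes with an adjusted p under 0.05. At least N-fold is the brighter mean against the lowest signals well above background. The interaction is the change with both less the separate changes. The brightest probe stands for a gene. At most 6 called genes per list are named, by the change with Rspo2 plus Wnt3a, and the 5 genes most like and most opposed to *Il33*. Response genes with a positive interaction are named besides. The 10 genes, the lists and the tests were chosen with earlier results of these data known. The labels do not say that monolayers were separate experiments, so p-values measure the spread between these samples. The fit was tested on simulated data. In all 12 alternatives, the leaving out of each of 12 arrays and within-slide values were tried. The coordinates of the probes in the files name no build and were not used here. Figures used matplotlib.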

Additional observations from a re-analysis of the deposited data

Results flagged for a closer look

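One *Il1rap* probe, A_52_P467232, differed in its response to Rspo2 between cultures without and with Wnt3a. The interaction was -0.554 on the log2 scale (SE 0.134, limma adjusted p = 0.0336). The log2 change with Rspo2 was 0.25 relative to BSA and -0.30 relative to Wnt3a. The adjusted p was under 0.05 in 7 of 21 settings (0.0166 to 0.881 over all) and was lost on leaving out any 1 of 9 arrays, and with slide as a term the interaction was -0.43 (adjusted p = 0.303). For the brightest *Il1rap* probe it was -0.09 (adjusted p = 0.768).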

How the results depend on the processing

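The direction of the *Il33* change was the same in every setting tried, in all 5 comparisons. The interaction with normexp correction was, however, smaller in size than its SE of 0.478. In the order Rspo2, Wnt3a and both against BSA, both against Wnt3a, and interaction, the log2 value was 1.572, 2.203, 3.632, 1.429 and -0.143 with normexp correction. Quantile normalization gave 2.572, 3.71, 5.285 and, for the interaction, -0.997, and the 75th percentile over probes above background on all arrays gave 2.252, 3.34, 4.956 and -0.636. With slide as a term the first 4 were 2.471, 3.689, 5.395 and 1.706, and the within-slide values, chosen after seeing the data, were 2.471 on slide 1 and 1.706 on slide 3. Leaving out single arrays gave 2.287 to 2.399, 3.397 to 3.511, 5.004 to 5.116, 1.558 to 1.667 and -0.794 to -0.679. The number of changed probes of the 9 other genes, 0, 0, 1, 0 and 0, became 1, 5, 6, 3 and 1 with no fold requirement. It became 1 with quantile normalization or the authors' table for Wnt3a. For the combination it became 2 with quantile normalization, the percentile over probes above background or the methods' t-test without adjustment, and 0 with normexp correction or slide as a term. Leaving out single arrays gave 0 to 2 for Wnt3a (2 without BSA replicate 2, 1 without Wnt3a replicate 1 or combination replicate 3), 1 to 2 for the combination (2 without Wnt3a replicate 3) and 0 to 1 for the combination against Wnt3a (1 without Wnt3a replicate 3). The cause of these shifts was not tested. Replicate numbers did not pair the arrays: same-numbered arrays correlated between -0.412 and 0.272 and 3 of 12 matched best with their own number. With the replicate block the *Il33* values were unchanged (2.352, 3.462 and 5.069 against BSA) as were the counts of changed probes, while probes with an adjusted p under 0.05 numbered 0, 5, 6, 1 and 0 rather than 1, 5, 6, 3 and 1. Normexp correction shifted the median of all probes by 0.139 with Rspo2, -0.101 with the combination and -0.161 in the interaction, and the percentile over probes above background by -0.122 with Wnt3a, -0.113 with the combination and 0.108 in the interaction. Probes near background limit all values for *Il1a*, *Il1b*, *Il1r2* and the dimmer *Il1rn* and *Il1rap* probes.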
